A study of Homo sapiens with 6 samples.

Results

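Long non-coding RNA LINC01239 lies on the short arm of human chromosome 9, in band 9p21, on the same side as the 5′ ends of the tumour suppressor genes CDKN2A and CDKN2B, which run on the minus strand. The 7 genes described here are IFNE, MTAP, CDKN2A, CDKN2B-AS1, CDKN2B, DMRTA1 and LINC01239, taken in the order of their start along the chromosome, out of 56303 gene symbols in the deposited table. The locus was chosen by the counts of LINC01239 in these same libraries, which were much lower after RBM39 knockdown, so its values are a description and carry no test, while the other 6 were listed for their place beside it with their values already known. The libraries came from SW480 cells, an established human colorectal cancer cell line, 3 with a nonsilencing hairpin (shCtrl, labelled WT) and 3 with a hairpin against the splicing factor RBM39 (shRBM39, labelled RBM39 knockdown). Both hairpins were delivered by lentivirus, and stable clonal lines were selected with puromycin according to the methods of the study. Whether the replicates of a group came from more than 1 clone is not given in the sources used here, so p-values measure the spread between these libraries, which may be technical.

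Band 9p21 is one of the most frequently deleted or silenced regions in human cancer. CDKN2A encodes INK4a, an inhibitor of the cyclin D kinases, and from a second start and another reading frame ARF, a protein that binds MDM2. CDKN2B encodes INK4b, a related kinase inhibitor that TGF-beta can induce, and CDKN2B-AS1, also called ANRIL, is a long non-coding RNA transcribed from the opposite strand and described as binding Polycomb proteins. MTAP encodes the phosphorylase that salvages methionine from methylthioadenosine, DMRTA1 a transcription factor with a DM domain, and IFNE an interferon of the type I cluster. LINC01239 is an intergenic long non-coding RNA for which no function is stated here.

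The start regions of the genes that lay lower in shRBM39 are shown first, because 3 of them crowd into a short stretch and run on opposite strands. RefSeq gives a start for 6 of the 7 genes (GRCh38.p14), with 2 for CDKN2A, and LINC01239 had no entry. Each line holds the 250 bases before the first transcribed base, 5′ to 3′ on the strand of the gene, and capitals mark GC boxes (GGGCGG, or CCGCCC on the other strand).
CDKN2A, proximal start (INK4a), chr9:21974858-21975107, minus strand: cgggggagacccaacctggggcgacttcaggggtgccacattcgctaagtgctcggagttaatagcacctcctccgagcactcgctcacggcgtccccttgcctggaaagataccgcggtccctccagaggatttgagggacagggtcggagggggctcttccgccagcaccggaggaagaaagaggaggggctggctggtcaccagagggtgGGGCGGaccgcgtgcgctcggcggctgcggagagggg
CDKN2B-AS1, chr9:21994541-21994790, plus strand: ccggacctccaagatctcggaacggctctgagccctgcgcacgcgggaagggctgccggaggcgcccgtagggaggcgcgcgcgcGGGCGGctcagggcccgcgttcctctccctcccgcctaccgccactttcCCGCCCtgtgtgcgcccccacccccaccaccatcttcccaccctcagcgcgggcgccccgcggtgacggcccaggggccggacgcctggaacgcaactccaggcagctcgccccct
CDKN2A, distal start (ARF), chr9:21995325-21995574, minus strand: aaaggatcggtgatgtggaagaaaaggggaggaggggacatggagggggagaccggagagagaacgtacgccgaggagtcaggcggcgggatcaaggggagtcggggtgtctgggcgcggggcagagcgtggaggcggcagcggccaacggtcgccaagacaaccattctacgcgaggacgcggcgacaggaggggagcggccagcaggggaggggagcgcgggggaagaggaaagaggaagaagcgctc
CDKN2B, chr9:22009306-22009555, minus strand: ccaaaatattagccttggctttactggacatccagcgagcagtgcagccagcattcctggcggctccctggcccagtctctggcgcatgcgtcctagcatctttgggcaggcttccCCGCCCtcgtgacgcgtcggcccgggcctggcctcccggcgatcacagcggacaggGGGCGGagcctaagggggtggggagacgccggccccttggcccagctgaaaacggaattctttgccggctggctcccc
DMRTA1, chr9:22446574-22446823, plus strand: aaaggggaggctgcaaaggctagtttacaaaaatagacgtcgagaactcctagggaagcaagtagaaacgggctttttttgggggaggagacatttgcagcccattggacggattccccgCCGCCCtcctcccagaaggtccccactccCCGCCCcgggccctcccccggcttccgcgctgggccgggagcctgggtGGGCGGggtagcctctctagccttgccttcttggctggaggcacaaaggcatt

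The distal CDKN2A start lay 533 bases from the start of CDKN2B-AS1 on the opposite strand, and the CDKN2A starts lay 20467 bases apart. Counts in the deposited table are per gene, so transcripts of INK4a and ARF are summed in the value of CDKN2A. A GC box was found 2 times in the CDKN2B-AS1 and CDKN2B windows, once in the proximal and 0 times in the distal CDKN2A window, and 3 times in that of DMRTA1. It was present in 42.6% of the 35116 windows of the same length in the RefSeq table, so its presence here is a description. The GC content of these 5 windows ran from 61.6% (DMRTA1) to 75.6% (CDKN2B-AS1), against a median of 58% over all windows. The MTAP window had 50% GC and 2 GC boxes, and that of IFNE 31.2% GC and 0 GC boxes. AP-1 letters (TGANTCA) and E-box letters (CACGTG), searched on both strands, were not found in any of the 7 windows, against 6.57% and 6.34% of all windows. TATA box letters (TATAAA, or TTTATA) occurred once, in the MTAP window, against 10.7% of all windows.

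Total counts ran from 18042924 to 20428901 per library. RBM39, the targeted gene, was at 441 ± 6.52 CPM (counts per 1000000 counts of the library, with TMM factors, mean ± SD, n = 3) in shCtrl and at 278 ± 13.3 CPM in shRBM39. On the log2 scale it fell by 0.67, standard error 0.04, at an adjusted p from edgeR of 1.24e-16. Of 18243 genes that passed the filter on low counts, 59.1% passed an adjusted p of 0.05 by the quasi-likelihood F test of edgeR, 29.9% as lower and 29.2% as higher in shRBM39, and 4.16% were lower by at least 2-fold. In CPM, all shRBM39 libraries lay below all shCtrl libraries for 32.3% of tested genes, and above them for 31%. Of 8 colon epithelial markers 7 could be tested and the sum of all 8 was 10795 to 11550 CPM in shCtrl and 13794 to 14338 CPM in shRBM39. Most of this sum was KRT8 and KRT18, which were higher. KRT20, at few counts, also rose, by 1.82 on the log2 scale (edgeR adjusted p 8.41e-05). CDX2, a transcription factor gene of the intestine, fell by 2.13 on the log2 scale, CDH17 by 1.34 and VIL1 by 0.09. EPCAM was not called and CDX1 was near 0. The lists of other cell types summed to 10.0 to 11.1 and 14.02 to 14.56 CPM for fibroblasts, 0.894 to 1.44 and 2.22 to 2.80 CPM for leukocytes with PTPRC at 0, and 3.47 to 4.57 and 6.45 to 7.95 CPM for endothelium, in shCtrl and shRBM39. Their part in the results below was not tested.

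LINC01239 (chromosome 9, 22646200 to 22824213, plus strand, GRCh38) had 252, 211 and 198 counts in the shCtrl libraries and 10, 8 and 20 in the shRBM39 libraries. All 3 knockdown libraries lay far below the lowest control library. Its level per length was 5.02, 4.06 and 3.97 RPKM (CPM without TMM factors, divided by the exon length in kilobases) in shCtrl and 0.191, 0.173 and 0.385 RPKM in shRBM39. The fitted log2 fold change was -3.97 with a standard error of 0.19, which left 6.37% of the shCtrl level. The summed counts, 661 against 38, gave a ratio of 15.8 after scaling to library size with TMM factors, with an exact 95% counting interval from 11.4 to 22.6. Among 163 LINC symbols that could be tested it had the lowest log2 fold change, and it ranked second lowest of all tested genes. Of these LINC symbols, LINC01239 included, edgeR called 62 lower and 21 higher. The share lower by at least 2-fold was 11.7%, against 4.16% over all tested genes. LINC01239 was chosen for this fall, so its ranks and interval only describe it and are no test.

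**Figure D1:**
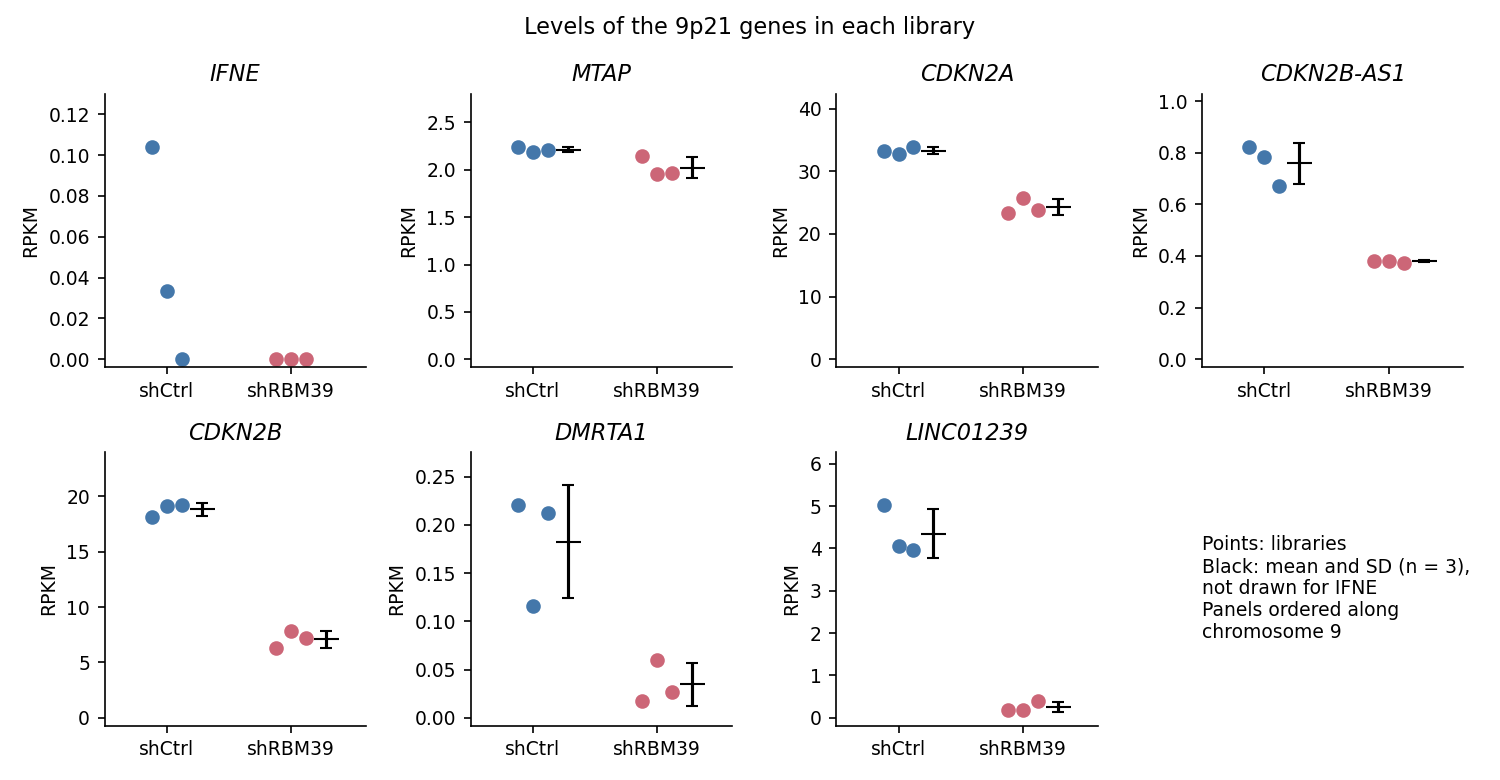
RPKM of each of the 7 genes in each library (points), with the mean and SD of 3 libraries per group in black except for IFNE, which had at most 3 counts in a library. Each panel has its own linear axis from 0. The groups are apart for CDKN2A, CDKN2B-AS1, CDKN2B, DMRTA1 and LINC01239. In CPM, 32.3% of all tested genes have shRBM39 wholly below shCtrl. The MTAP means are 2.21 and 2.02 RPKM on this scale, which is not corrected by TMM.

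The genes at the CDKN2A and CDKN2B core fell less steeply than LINC01239. CDKN2A (chromosome 9, 21967753 to 21995301, minus strand) had 2814, 2862 and 2853 counts in shCtrl and 2060, 2007 and 2080 in shRBM39, and the groups did not overlap. Its level was 138 ± 3.03 CPM in shCtrl and 110 ± 6.06 CPM in shRBM39 (SD, n = 3). CDKN2A fell by 0.34 on the log2 scale, standard error 0.04, at an adjusted p from edgeR of 1.49e-08. CDKN2B (chromosome 9, 22002903 to 22009363, minus strand) had 1438, 1572 and 1515 counts in shCtrl and 522, 573 and 590 in shRBM39. With no overlap between the groups, CDKN2B was at 73.2 ± 1.72 CPM in shCtrl and 30.1 ± 3.33 CPM in shRBM39 (SD, n = 3). It fell by 1.29 on the log2 scale, standard error 0.06, at an adjusted p from edgeR of 3.94e-20. The kinase inhibitor gene CDKN2B thus kept 41.0% of its shCtrl level and its neighbour CDKN2A 79.3%.

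The antisense RNA CDKN2B-AS1 (chromosome 9, 21994778 to 22121097, plus strand) was present at few counts, 68, 67 and 55 in shCtrl and 33, 29 and 32 in shRBM39. Every knockdown library was below every control library, and the log2 fold change was -0.88 (standard error 0.18, edgeR adjusted p 8.59e-05), or 3.07 ± 0.34 against 1.67 ± 0.0187 CPM (SD, n = 3). In the deposited exons, 341 bases of CDKN2B-AS1, 8.07% of its exon length, are also exon of CDKN2A on the opposite strand. A stranded kit was used, but whether reads were counted by strand is not given in the sources used here, and in those bases the reads of both genes then cannot be told apart. CDKN2B shared no exon base with CDKN2B-AS1 or any other gene within 2 Mb.

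DMRTA1 (chromosome 9, 22446841 to 22455740, plus strand), which lies 190 kb before LINC01239, had 24, 13 and 23 counts in shCtrl and 2, 6 and 3 in shRBM39. All control libraries were above all knockdown libraries at a level close to the limit of detection. Its log2 fold change was -2.28 (standard error 0.43, edgeR adjusted p 2.51e-05), and the summed counts, 60 against 11, gave a ratio of 4.96 after the same scaling, with an exact 95% counting interval from 2.59 to 10.5. DMRTA1 and LINC01239 passed the filter through their shCtrl libraries alone. At least 10 counts were reached in all 3 shCtrl libraries of both genes, and in 0 shRBM39 libraries of DMRTA1 and 2 of LINC01239. With no filter on low counts the value of DMRTA1 was -2.27 with an edgeR adjusted p of 3.27e-07. The adjusted p of that fit are not comparable with the others. For CDKN2B the edgeR adjusted p went from 3.94e-20 to 2.10e-127 without the filter, at a log2 fold change of -1.28.

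On the far side of CDKN2A no gene of the 7 was called. MTAP (chromosome 9, 21802543 to 21937651, plus strand), which ends before CDKN2A begins, had 641, 648 and 626 counts in shCtrl and 641, 517 and 581 in shRBM39. The groups overlapped in CPM, at 31.0 ± 0.674 and 30.9 ± 1.56 (SD, n = 3). The log2 fold change of MTAP was -0.0046 with a 95% interval from -0.12 to 0.11 and an edgeR adjusted p of 0.951. Under scaling by library totals alone, which moved the median of all genes by -0.12, MTAP was at -0.13 with an edgeR adjusted p of 0.0485. IFNE (chromosome 9, 21480839 to 21482313, minus strand), a gene of 1 exon, had 3, 1 and 0 counts in shCtrl and 0 in each shRBM39 library. A difference in IFNE was not detectable at this depth, where a count of 0 allows up to 3 counts or 0.153 to 0.174 CPM in a shRBM39 library.

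Set in order of start, the fitted difference of the 6 listed genes with enough counts grew toward LINC01239 on the scale of counts. Over all tested genes the order did not hold. RP11-70L8.4 and a plus strand locus described below, which both start between MTAP and CDKN2A, were at -0.08 and 0.18. The order of the listed genes is a description with no test, and it did not hold on log2 RPKM with 1 or 0.1 added. The log2 fold changes were -0.0046, -0.34, -0.88, -1.29, -2.28 and -3.97 for MTAP, CDKN2A, CDKN2B-AS1, CDKN2B, DMRTA1 and LINC01239. Against the mean of the shCtrl libraries, the 3 shRBM39 libraries were at -0.39, -0.25 and -0.36 for CDKN2A and at -1.46, -1.14 and -1.27 for CDKN2B on the log2 scale. They were at -3.20, -1.43 and -2.60 for DMRTA1 and at -4.38, -4.52 and -3.37 for LINC01239. Each of the 3 libraries held the same order of the 6 genes. All were set against the same shCtrl mean, and the genes were listed with their values known, so this is no independent support. The value of DMRTA1 rests on 2, 6 and 3 counts in shRBM39. The 95% intervals of CDKN2B-AS1 (-1.24 to -0.51) and CDKN2B (-1.40 to -1.18) overlapped. On log2(RPKM + 0.1), DMRTA1 was at -1.06 and CDKN2B at -1.40. On log2(RPKM + 1), CDKN2A was at -0.44, CDKN2B-AS1 at -0.35, CDKN2B at -1.30 and DMRTA1 at -0.19, so the order was lost on both scales. CDKN2B-AS1 also extends past CDKN2B, so that by their ends these genes change places.

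**Figure D2:**
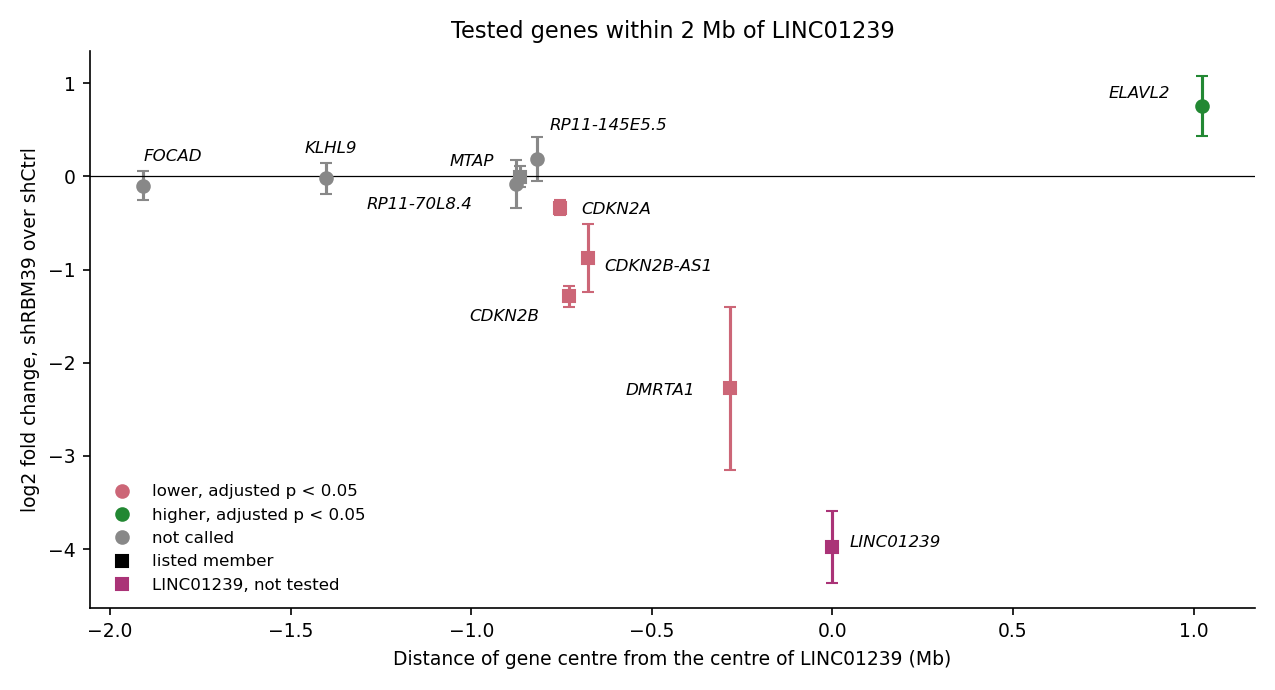
Log2 fold change (shRBM39 over shCtrl, with 95% interval) of the 11 tested genes within 2 Mb of LINC01239 against the distance of the gene centre in Mb. Squares are listed genes, LINC01239 in purple with no test, and circles other genes. MTAP is at -0.0046, LINC01239 at -3.97, and ELAVL2 on the other side at 0.75. The points do not fall steadily along this axis. CDKN2B-AS1 at -0.88 has its centre nearer LINC01239 than CDKN2B at -1.29, and a plus strand locus at 0.18 lies between MTAP and CDKN2A.

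To look past the listed genes, all 68 symbols within 2 Mb of LINC01239 were taken by position alone. Of these, 36 had 0 counts in all libraries, and 11 could be tested. Of the 11, 6 were listed genes, and of the 5 others 0 were lower, 1 was higher and 4 were not called by edgeR, against 29.9% lower and 29.2% higher over all tested genes. None of these 5 was lower at an unadjusted p of 0.05 or in DESeq2. The higher gene was ELAVL2 (chromosome 9, 23690104 to 23826337), which encodes a neuronal RNA-binding protein and is the next tested gene after LINC01239, 866 kb beyond its end. ELAVL2 had 47, 58 and 46 counts in shCtrl and 91, 73 and 68 in shRBM39, with no overlap. It rose by 0.75 on the log2 scale, standard error 0.16, at an adjusted p from edgeR of 0.000115. FOCAD, which encodes focadhesin, and KLHL9, an adaptor of a ubiquitin ligase, lie beyond MTAP and were not called, at -0.10 (95% interval -0.25 to 0.06) and -0.02 (95% interval -0.19 to 0.14). FOCAD was lower under library totals alone, at -0.22 with an edgeR adjusted p of 0.0133.

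The remaining genes without a call are loci known only by clone names, RP11-70L8.4 at -0.08 and a plus strand locus (chromosome 9, 21802636 to 22032986) at 0.18. This plus strand locus spans from MTAP into CDKN2B-AS1, and 100% of its 935 exon bases are exon of MTAP (460 bases) or CDKN2B-AS1 (475 bases) on the same strand. It had 149, 120 and 125 counts in shCtrl and 160, 118 and 130 in shRBM39, more than CDKN2B-AS1 itself. How reads in these shared bases were assigned is not given in the sources used here, so the reads of the 3 loci cannot be told apart there, and 11.2% of the exon length of CDKN2B-AS1 is affected. This locus was called as higher when shCtrl replicate 1 was left out, at 0.31 (edgeR adjusted p 0.0447).

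Over a wider stretch, genes lower by at least 2-fold were not limited to this locus. Of 196 tested genes on the short arm of chromosome 9, 65 were lower (33.2%) and 45 higher, with a median log2 fold change of -0.08 against -0.01 over all tested genes. On the long arm, 158 of 526 were lower (30.0%) and 156 higher. Of the tested genes on the short arm, 8.16% were lower by at least 2-fold, against 5.51% on the long arm and 4.16% over all tested genes. The short arm share includes LINC01239, DMRTA1 and CDKN2B. Over all of chromosome 9 outside the window of 2 Mb, the share was 5.91%. Within 1 Mb of LINC01239, 3 genes were lower by at least 2-fold, LINC01239 included, and 13.4% of 18212 tested genes had at least as many such genes within 1 Mb, a share that also depends on how densely genes lie. This is a description with no test.

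**Figure D3:**
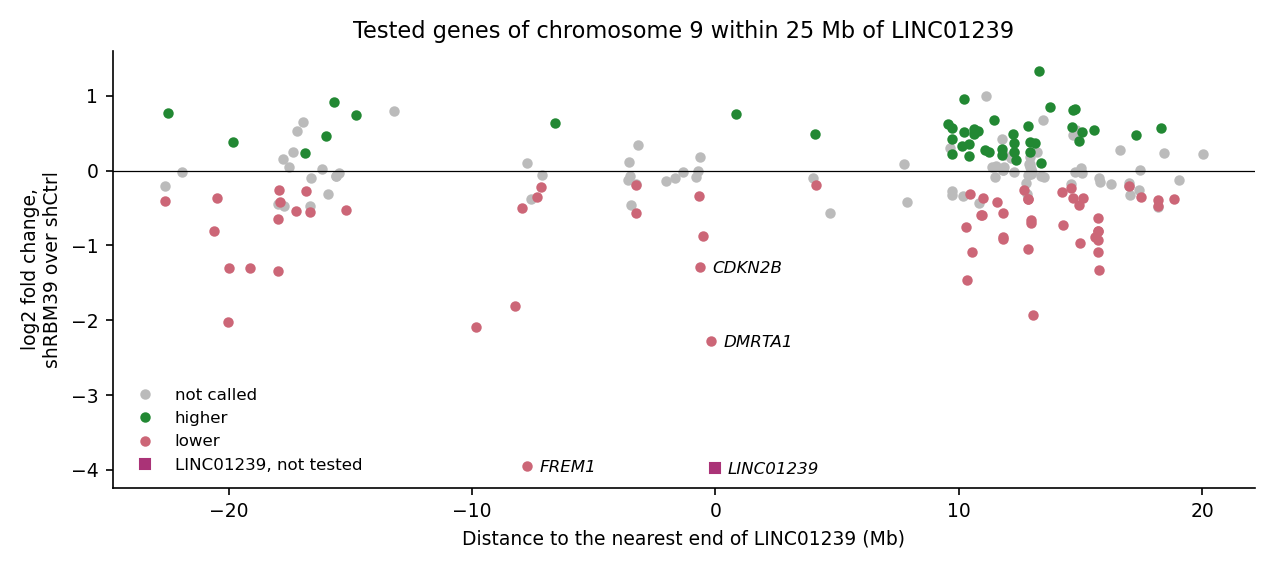
Log2 fold change (shRBM39 over shCtrl) of tested genes of chromosome 9 against the distance in Mb to the nearest end of LINC01239, up to 25 Mb. Red, green and grey points are lower, higher and not called at an adjusted p of 0.05, and the purple square is LINC01239, with no test. FREM1 at -3.95 lies apart from the genes around LINC01239.

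In the level per length, the order of the genes was CDKN2A, CDKN2B, LINC01239, MTAP, CDKN2B-AS1, DMRTA1 and IFNE in shCtrl. Mean levels were 33.3, 18.8, 4.35, 2.21, 0.759, 0.183 and 0.0459 RPKM, and no library of one gene reached the range of the next. In shRBM39 the order was CDKN2A, CDKN2B, MTAP, CDKN2B-AS1, LINC01239, DMRTA1 and IFNE, at 24.2, 7.10, 2.02, 0.379, 0.249, 0.0346 and 0 RPKM. LINC01239 thus stood above MTAP in shCtrl and below it in shRBM39, where its libraries overlapped those of CDKN2B-AS1. RPKM values are scaled by library totals, and the exon length of MTAP, 14617 bases, merges many transcripts, which lowers its RPKM.

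The genes whose pattern over the 6 libraries was most like that of LINC01239 were PRSS1, FREM1, UNC5B, PSD2 and ASS1. Likeness was the root mean square difference of log2(CPM + 0.5), centred on each gene's mean, which was 0.28, 0.30, 0.37, 0.40 and 0.44 for these genes among 16259 compared. FREM1, an extracellular matrix gene, also lies on the short arm of chromosome 9 (14734666 to 14910995), and ASS1, the argininosuccinate synthase gene, on its long arm. FREM1 went from 6.40 ± 0.27 to 0.411 ± 0.0914 CPM (SD, n = 3). Within the locus, CDKN2B was the most similar of the genes compared, at 1.04 and rank 139.

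The pathway of the CDKN2A and CDKN2B proteins was examined next, since INK4 proteins bind CDK4 and CDK6 and hold back the phosphorylation of RB. Of 15 genes of this list, all tested, 8 rose, 6 fell and 1, RB1 at -0.05, was not called, with a median log2 fold change of 0.17, where 59.1% of all tested genes were called. The largest increases were those of CCND3, a cyclin D gene (1.06, edgeR adjusted p 2.18e-16), and of the transcription factor gene E2F1 (0.95, edgeR adjusted p 3.44e-13). The largest decreases were those of CDKN2B and of CCND2, another cyclin D gene (-0.98, edgeR adjusted p 1.54e-11). CDKN2C and CDKN2D, the other INK4 genes, which lie on other chromosomes and were named after their values were seen, fell too, by 0.41 and 0.43 on the log2 scale (edgeR adjusted p 0.00243 and 0.00221), and the groups overlapped for CDKN2C, where shCtrl replicate 1 had 169 counts. CDK6 and CCND1, higher by 0.21 and 0.17, lost their calls when scaled by library totals and on log2 RPKM.

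**Figure D4:**
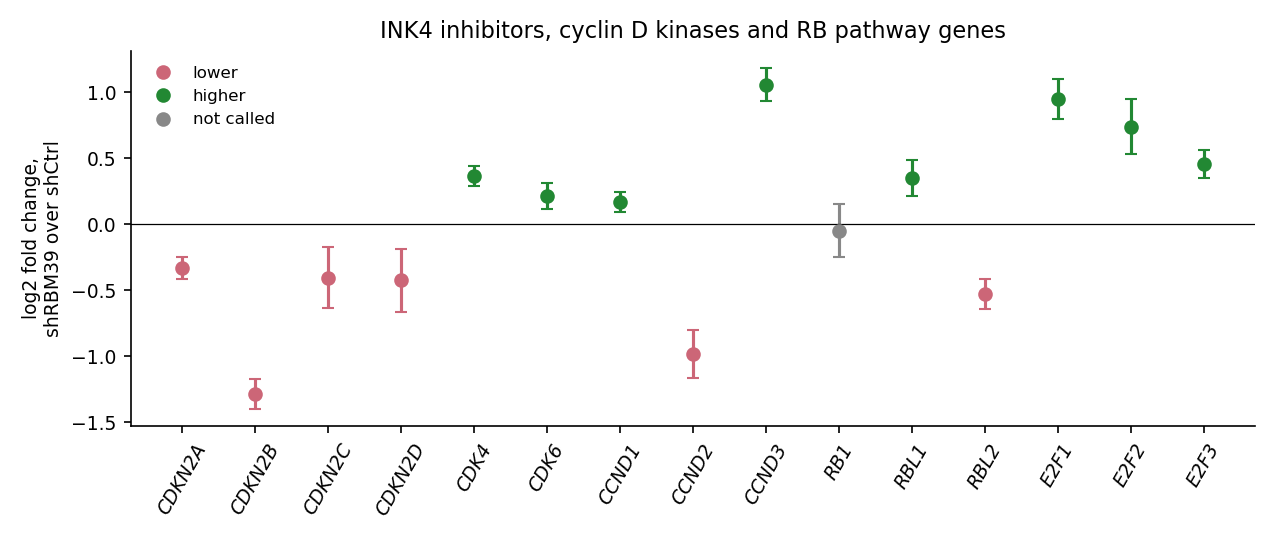
Log2 fold change (shRBM39 over shCtrl, with 95% interval) of the 15 genes of the INK4, cyclin D kinase and RB list. The 4 INK4 genes lie between -1.29 and -0.34, and CCND3 and E2F1 are highest at 1.06 and 0.95.

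For ARF, genes around MDM2 were examined. CDKN1A, another kinase inhibitor gene, was at 0.53 (edgeR adjusted p 0.0435). Lower genes besides CDKN2A were MDM2, whose protein ARF binds, at -0.19 (edgeR adjusted p 0.0188) and HUWE1, another ubiquitin ligase gene, at -0.12 (edgeR adjusted p 0.00811). The call of CDKN1A, a gene of 1.38 CPM in shCtrl, was lost under every other scaling and tool tried. MDM2 lost its call in DESeq2.

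Methionine salvage enzymes, polyamine enzymes that feed it and the PRMT5 methyltransferase, which methylthioadenosine inhibits, were set beside MTAP. Of 13 genes, 9 rose, 2 fell and 2, MTAP and ENOPH1, were not called, with a median of 0.18, again beside 59.1% called over all tested genes. WDR77, the partner of PRMT5, rose by 0.60 (edgeR adjusted p 6.5e-07) and AMD1, an enzyme of polyamine synthesis, by 0.58 (edgeR adjusted p 3.24e-11). MRI1, a salvage enzyme gene, and MAT2A, which encodes the methionine adenosyltransferase, fell by 0.17 and 0.15 (edgeR adjusted p 0.017 and 0.00081), and MRI1 lost its call in DESeq2. AHCY, at 0.09, was not called under upper-quartile scaling and changed sign on log2 RPKM and with library totals, and PRMT5, APIP and MAT2B, at 0.15, 0.20 and 0.18, lost their calls there.

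The remaining lists concern IFNE, DMRTA1 and CDKN2B-AS1. Of 18 genes of the type I interferon cluster on the short arm, 16 had 0 counts in all libraries and only KLHL9 could be tested. Of the interferon receptor genes, IFNAR1 rose by 0.26 (edgeR adjusted p 0.000713) and was not called under library totals alone or on log2 RPKM. IFNAR2, the other chain, fell by 0.30 (edgeR adjusted p 0.000615) and the kinase gene JAK1 by 0.27 (edgeR adjusted p 9.35e-07). Of the 7 DMRT genes only DMRTA1 could be tested. The 6 Polycomb genes were all called, 3 higher and 3 lower, beside 59.1% called over all tested genes, with SUZ12 and RNF2 higher by 0.40 and 0.39 (edgeR adjusted p 5.29e-09 and 0.000514) and CBX7 and EZH2 lower by 0.72 and 0.29 on the log2 scale (edgeR adjusted p 4.02e-06 and 3.64e-08). The third lower gene, BMI1, at -0.21, had overlapping groups and lost its call in DESeq2.

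No gene within 2 Mb of LINC01239 had a record among the 1582 splicing events that the authors deposited, a table restricted to events past their thresholds.

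**Figure D5:**
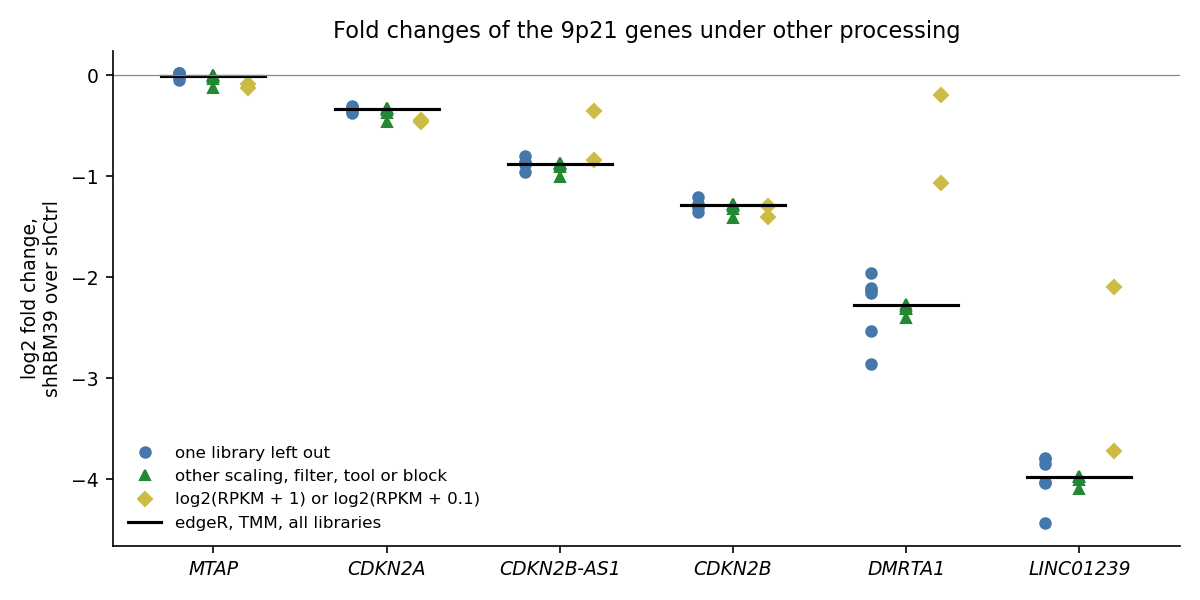
Log2 fold change (shRBM39 over shCtrl) of 6 genes under each alternative processing, with the reported value as a black line. Adding 1 or 0.1 to RPKM before the log pulls the lowly expressed DMRTA1, CDKN2B-AS1 and LINC01239 toward 0, LINC01239 to -2.10 with 1 added.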

How the data were processed

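mRNA was sequenced from 6 SW480 libraries, 3 per group, grouped and numbered by their titles. The control columns, headed NC, were assigned to shCtrl because the series has no other control. The deposited counts are unnormalized read counts for each gene symbol on GRCh38, in the layout of featureCounts. The submitters' processing notes name Trimmomatic 0.36, STAR 2.5.3a, Subread 1.5.1 and edgeR 3.12.1, with no roles. The kit was stranded and the sequencing is described as UID-mRNA-seq. The strand setting of the counting, its treatment of multi-mapped reads and whether identifiers were used to remove duplicates are not given in the sources used here. Dividing counts by exon length and library total gave the deposited RPKM values, with a largest relative difference of 5.21e-15. Of the 116 distinct exons of the 7 genes, 88.8% were identical in GENCODE 44. Total counts ran from 18042924 to 20428901 per library, and intervals on counts cover counting error only.

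Counts were tested with edgeR 4.0.16 in R 4.3.3 (filterByExpr, TMM, quasi-likelihood F test, no term besides group, Benjamini-Hochberg over all tested genes at 0.05). Log2 fold changes are shRBM39 over shCtrl, CPM carry TMM factors, and standard errors and 95% intervals come from the F statistic. Alternatives were DESeq2 1.42.0, other scalings and filters, limma 3.58.1 on log2(RPKM + 1) and log2(RPKM + 0.1), a replicate block, each library left out, a threshold of 0.01 and windows of 1 and 5 Mb. Within groups, no replicate pair agreed within sampling noise (chi-square divided by its degrees of freedom was 2.12 to 4.25).

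The members, lists and the rule for named genes were chosen with earlier results of these data known. Named were the 7 genes, tested genes within 2 Mb, RBM39, up to 2 genes per direction of each list with the largest change past the threshold, and 5 genes most like LINC01239 with a mean of at least 1 CPM. The short arm was taken as starts under 43 Mb. The authors' splicing statistics and event tally are their own comparison and were not used beyond the gene names. Some genes of the lists on ARF and on interferon signalling, and the counts over those lists, are not reported here.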

Additional observations from a re-analysis of the deposited data

How the results depend on the processing

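CDKN2A, CDKN2B-AS1, CDKN2B and RBM39 kept their direction and their call in all 14 alternatives run, and DMRTA1 in the 13 that tested it. Most of those 13 reuse a filter that DMRTA1 passed through its shCtrl libraries alone, so its kept call is no independent support. At least 10 counts in every library removed DMRTA1 and LINC01239. With 1 library left out, the log2 fold changes ran from -0.38 to -0.30 for CDKN2A, -0.96 to -0.80 for CDKN2B-AS1, -1.36 to -1.20 for CDKN2B, -2.86 to -1.95 for DMRTA1, -4.43 to -3.78 for LINC01239 and -0.0443 to 0.0217 for MTAP. With 1 added to RPKM, which compresses low values, LINC01239 was at -2.10, CDKN2B-AS1 at -0.35 and DMRTA1 at -0.19, and with 0.1 added DMRTA1 was at -1.06. MTAP was at -0.13 and called under library totals alone, at 0.0054 with no filter and at 0.0038 in DESeq2. Its sign also turned to 0.02 without shCtrl replicate 1, without shRBM39 replicate 2 and without shRBM39 replicate 3. Library totals alone moved the median of all genes by -0.12 and the share of calls that were higher from 49.4% to 33.9%. It was 33.6% in both fits on RPKM.

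The window of 2 Mb held 6 called genes of 11 tested (54.5%), LINC01239 included. With 5 Mb on each side it held 10 of 24 (41.7%), against 59.1% over all tested genes. These counts, and those below wherever LINC01239 passed the filter, include the gene whose fall chose the locus. They are a description with no test. Without the 7 listed genes, 1 of 5 tested genes within 2 Mb was called (20%). With 1 library left out, from 6 to 7 were called within 2 Mb. The added gene was the plus strand locus that spans MTAP and CDKN2B-AS1, without shCtrl replicate 1. Library totals alone called 8, with FOCAD and MTAP added, and at least 10 counts in every library 4. With no filter 8 of 32 were called, the added ones HACD4 and RP11-370B11.3. With the replicate number as a block, CDKN2B was at -1.29 and LINC01239 at -3.98, 10810 genes were called against 10790, and no other call in the locus changed. Same-numbered libraries did not deviate together (correlations from -0.03 to 0.01), so the numbers were not taken as pairs. The depth limits IFNE and DMRTA1, with at most 3 and 24 counts in a library.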

Other observations

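Low-count genes close to LINC01239 were below the filter and carry no call in the report. RP11-370B11.3 (chromosome 9, 22767175 to 22768316), which lies inside the span of LINC01239 on the same strand, had 7, 6 and 8 counts in shCtrl and 1, 2 and 0 in shRBM39. Without the filter its log2 fold change was -2.53 (edgeR adjusted p 0.00433). HACD4, which encodes a dehydratase of fatty acid elongation and lies between FOCAD and the interferon cluster, had 5, 4 and 11 counts in shCtrl and 1, 1 and 3 in shRBM39, at -1.78 (edgeR adjusted p 0.0341) without the filter. RP11-408N14.1, between CDKN2B-AS1 and DMRTA1, had 6, 3 and 11 counts in shCtrl and 4, 0 and 6 in shRBM39. KHSRPP1 (21695176 to 21696943), between the interferon cluster and MTAP, went the other way, with 9, 9 and 7 counts in shCtrl and 12, 14 and 9 in shRBM39, and its groups did not overlap in CPM. These genes were named after their values were seen, and adjusted p without the filter are not comparable with those of the filtered fit.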
